A study of Mus musculus with 14 samples.

Results

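Contacts that the Stag1 locus made with chromosome 9 between 1 and 10 Mb away were measured by UMI-4C in mouse embryonic stem cells (ESC) and neural stem cells (NSC). UMI-4C counts which fragment ends of the genome were ligated to 1 chosen end, the bait, and each count is a unique molecular identifier (UMI), which stands for 1 ligated molecule and not for its PCR copies. A partner end was included when it lay on chromosome 9 between 90.6 and 99.6 Mb or between 101.64 and 110.6 Mb (GRCm38), paired with the bait end of its library. These rules use position only. They took 20569 of the 116782 distinct partner ends in the 14 libraries (17.6%). Summed over these libraries there were 39154 UMIs, and since some libraries repeat each other, as described below, this sum may count molecules more than once. Between the 2 ranges lay 8143 further ends close to the bait, and 28873 ends of chromosome 9 lay beyond them.

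ESC were grown in 2i-LIF, which keeps them in the naive state, and NSC were derived from ES cells and grown in EGF-FGF medium, and neither was treated. Each cell type was profiled from 3 baits, which the labels call Nanog bait 1, Nanog bait 2 and CTCF bait without saying what the words Nanog and CTCF refer to. Nanog bait 1 had 4 ESC and 3 NSC libraries, Nanog bait 2 had 3 ESC libraries and 1 NSC library, and the CTCF bait had 2 ESC libraries and 1 NSC library. The study's methods name E14, a male line, for its ESC cultures in general. Whether replicates came from separate cultures is not given in the sources used here, so p-values measure the spread between these samples, which may be technical. Contacts carry no expression values, so the labelled cell types could not be checked against markers.

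Contact frequency along a chromosome falls steeply with distance, and at the scale of megabases what remains reflects mostly the folding of whole chromosome territories and the grouping of chromatin into active and inactive compartments. Gene-dense, GC-rich stretches tend to lie in the active compartment and to contact each other, and gene-poor stretches tend to contact each other. Stag1 itself encodes a subunit of cohesin, the ring-shaped complex that forms chromatin loops.

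All listed partner ends on chromosome 9 lay at a GATC (100% in each library). The 30 bases of GRCm38 around the bait ends are given to show where all contacts were counted from, on the plus strand, with the GATC in capitals. Nanog bait 1 is at chr9:100619974-100620003 and Nanog bait 2 at chr9:100641684-100641713, both within Stag1. The CTCF bait, at chr9:100455363-100455392, is in no annotated gene and lies 2342 bp from Il20rb, which encodes a cytokine receptor chain.
Nanog bait 1: caagtactgcgctGATCcacttcctgttgg
Nanog bait 2: ggttggactgtagGATCtaaaacacaaaaa
CTCF bait: cagcatagactttGATCtgcagccatgggt

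Long-range contacts were spread thinly over the possible ends. Of the 89364 ends that the GATC sites of both ranges allow, 23.0% were listed in at least 1 library. Between 89.1% and 98.7% of the listed ends of a library carried 1 UMI, and none carried more than 6. After libraries that repeated each other were combined, 14194 ends (69.0%) were found in 1 sample, 6375 (31.0%) in 2 or more and 37 in at least 6. The 4 ends found in 7 samples, each from all 3 baits, lay near the inner edge of the ranges and are shown because they recurred most, again with the GATC in capitals. The first, at chr9:99570992-99571021, was 2108 bp from Armc8, and the second, at chr9:99273534-99273563, was within Cep70, which encodes a centrosomal protein. The third, at chr9:102387194-102387223, was 32516 bp from Ephb1, and the last, at chr9:102349410-102349439, was within both Ephb1 and the lincRNA Gm26846.
Recurrent end near Armc8: tcccagctgggatGATCtattacaagctgg
Recurrent end in Cep70: aaaaatgagactaGATCcttatctcttacc
Recurrent end near Ephb1: gtgcagaatctcaGATCaagtgcattccac
Recurrent end in Ephb1: gatccagtgtaagGATCcatgcactagtcc

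The libraries held 7172 to 51412 UMIs, of which 730 to 7234 lay in the ranges. Of the chromosome 9 UMIs outside 10 kb of the bait there were 4710 to 38704, so that 3 UMIs correspond to between 0.00775% and 0.0637% of them. Bait 1 libraries ESC 1 and 4, ESC 2 and 3, and NSC 1 and 3 had 82.6% to 85.7% of their ends on other chromosomes in common, and each such pair was averaged and counted as 1 sample, leaving 11 samples. A further 9 pairs had 1.92% to 12.9% in common, 8 of them joining ESC to NSC of the same bait, and are called linked libraries. The other 79 pairs had at most 0.641%. Binomial intervals and floors cover counting error only.

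NSC had more of their chromosome 9 contacts in the long range than ESC, at every bait. The long-range share is the percentage of the chromosome 9 UMIs outside 10 kb of the bait that lay in the 2 ranges. For bait 1 the 2 ESC samples had 21.6% and 15.6% and the 2 NSC samples 25.5% and 26.5%. For bait 2 the 3 ESC libraries had 21.3%, 15.8% and 15.7% and the single NSC library 23.3% (95% Wilson interval 22.5% to 24.0%). The CTCF bait gave 18.7% and 13.8% in ESC and 23.7% in NSC (Wilson interval 23.1% to 24.4%). Every ESC sample lay below every NSC sample of its bait. The differences, ESC minus NSC, were −7.37 percentage points for bait 1 (18.6% ± 4.25 against 26.0% ± 0.658, SD, n = 2 each), −5.67 for bait 2 (17.6% ± 3.22 in ESC, n = 3) and −7.47 for the CTCF bait (16.3% ± 3.42 in ESC, n = 2). Without distant ends that linked libraries had in common they were −6.94, −3.52 and −4.15.

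For bait 1 alone the two-sided exact permutation test gave p = 0.333, the smallest that 2 samples against 2 allow, and no permutation test was run for the other baits alone, which have 1 NSC library each. When the cell types were permuted within each bait, the mean difference over the 3 baits was −6.84 percentage points (17.5% against 24.3%), and the exact permutation test over 72 arrangements gave its smallest possible p, 0.0139. Adjusted by Benjamini-Hochberg over the 5 share measures reported here, this p was 0.0231. For every share, the test over all baits takes samples of different baits as independent. Whether baits were read from the same material is not given in the sources used here. Depth moved with the share among ESC samples, since the deepest ESC sample of each bait had the highest share, and the part of depth in the difference was not tested. With the deepest ESC samples alone the mean difference was smaller, at −3.79 percentage points (exact permutation p = 0.0833, the smallest possible). The deepest ESC library of the CTCF bait, with 51412 UMIs, lay below the NSC library, with 21874. This order was not kept when each end was counted once, since the highest ESC sample then lay above NSC at every bait (31.4% against at most 30.9% for bait 1, 30.1% against 29.0% for bait 2 and 32.8% against 30.7% for the CTCF bait).

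The long-range share also depends on what it is divided by. With each end counted once, whatever its UMIs, the mean difference was −4.13 percentage points (exact permutation p = 0.361). As a share of all UMIs outside 10 kb, other chromosomes included, it was −2.50 (exact permutation p = 0.0417), with −1.47 for bait 1, −1.66 for bait 2 and −4.37 for the CTCF bait. Of chromosome 9 UMIs outside 100 kb it was −5.16 (exact permutation p = 0.0278), and for bait 2, where it was −2.50, the highest ESC library and the NSC library were both at 28.0%. Another denominator was the chromosome 9 UMIs in or beyond the ranges, which begin 0.855 Mb from the CTCF bait. On it, contacts in the ranges made up 49.2% in ESC and 46.0% in NSC from bait 1, and 49.3% and 47.6% from bait 2. From the CTCF bait they made up 53.2% and 56.9%. The mean difference on that scale was 0.425 percentage points (exact permutation p = 0.75), and the direction differed between baits. This denominator and the main one differ by the contacts between 10 kb from the bait and the inner edges of the ranges, which this one leaves out.

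**Figure D1:**
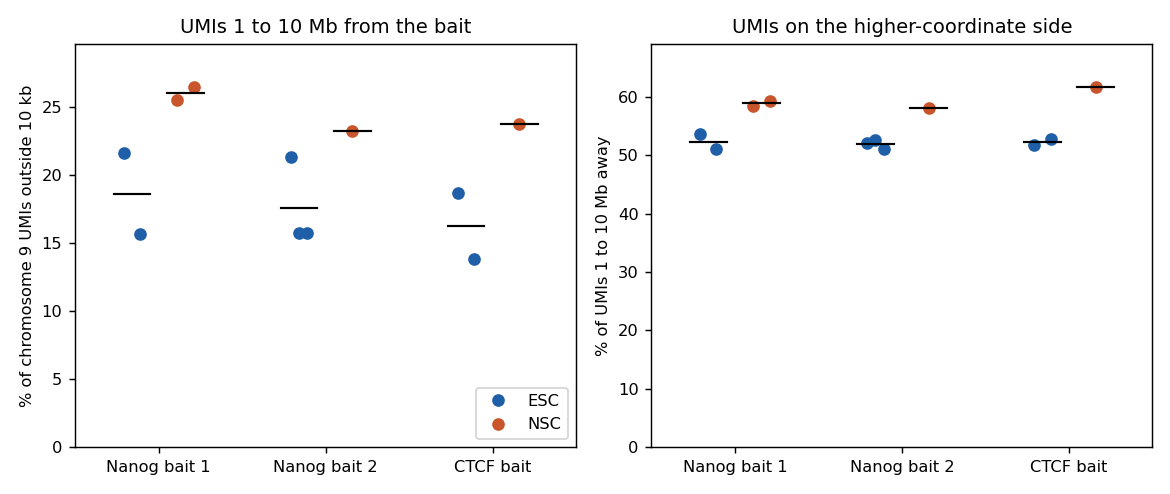
Long-range share (left, % of chromosome 9 UMIs outside 10 kb of the bait) and high-side share (right, % of the UMIs 1 to 10 Mb away) by bait, with 1 point for each of the 11 samples, ESC in blue and NSC in orange, and black bars at group means. At each bait all ESC points lie below the NSC points in both panels, and in the left panel ESC points range from 13.8% to 21.6% and NSC points from 23.3% to 26.5%.

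NSC exceeded ESC in each of 3 distance bands. Between 1 and 2 Mb from bait 1, ESC had 3.63% and NSC 5.22% of chromosome 9 UMIs per Mb. The corresponding densities were 3.35% and 4.63% from bait 2, and 3.37% and 5.53% from the CTCF bait. NSC thus had 1.44, 1.39 and 1.64 times the ESC density, with no overlap between samples. Between 2 and 5 Mb the ratios were 1.33, 1.28 and 1.47, and between 5 and 10 Mb they were 1.44, 1.29 and 1.14, again with no overlap. In single 1 Mb bands from 4 Mb outwards ESC and NSC samples overlapped in some bands, for example between 4 and 5 Mb from bait 2 (0.795% and 0.849% per Mb). The mean was higher in ESC between 8 and 9 Mb from bait 2 (NSC at 0.850 times ESC) and between 9 and 10 Mb from the CTCF bait (0.950 times), both with overlap.

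The decline with distance was summarised by a slope. On log-log axes over 1 Mb bands, the slope was −1.36 ± 0.131 in ESC and −1.34 ± 0.0668 in NSC for bait 1 (SD, n = 2 each). For bait 2 it was −1.32 ± 0.0394 in ESC (SD, n = 3) and −1.42 in NSC, steeper than each ESC library. The CTCF bait gave −1.46 ± 0.0148 in ESC (SD, n = 2), and its NSC library was steeper, at −1.75. The slopes were not tested.

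The far share is the percentage of the long-range UMIs that lay 5 Mb or more from the bait. For bait 1 this was 24.4% and 19.7% in ESC and 24.0% and 22.3% in NSC. For bait 2 it was 24.2%, 22.8% and 21.6% in ESC and 22.5% in NSC, so that both Nanog baits had overlapping groups. The CTCF bait had 19.5% and 20.1% in ESC and 15.7% in NSC, which lay below both ESC libraries. The mean difference over the baits, 1.14 percentage points, did not pass the exact permutation test (p = 0.389, adjusted p = 0.389), and the differences by bait were −1.09 (exact permutation p = 1), 0.365 and 4.16.

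**Figure D2:**
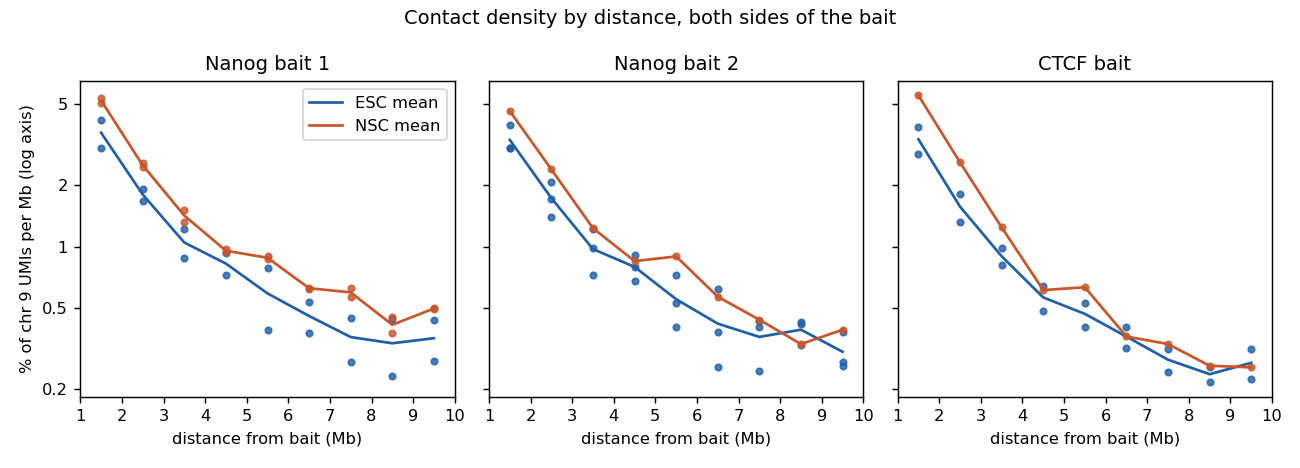
Contact density (% of chromosome 9 UMIs outside 10 kb of the bait per Mb, log axis) in 1 Mb bands from 1 to 10 Mb on both sides of each bait, with points for samples and lines for the means of ESC (blue) and NSC (orange). The NSC line lies above the ESC line from 1 to 3 Mb at every bait, where samples do not overlap, and the lines meet or cross in some bands farther out.

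Between 1 and 2 Mb from the bait the excess in NSC lay on 1 side. The high-side share is the percentage of the long-range UMIs at higher coordinates than the bait, the side that holds Ephb1, and 50.6% of the possible ends lie there. Bait 1 gave 53.6% and 51.0% in ESC and 58.5% and 59.3% in NSC. Bait 2 gave 52.0%, 52.6% and 51.0% in ESC and 58.1% in NSC. For the CTCF bait the values were 51.8% and 52.8% in ESC and 61.7% in NSC. Levels of the CTCF bait cannot be set beside those of the Nanog baits, since the fixed ranges begin 0.855 Mb below it and 1.18 Mb above it. With 1 to 10 Mb taken from its own position, the CTCF bait had 58.2% and 59.6% in ESC and 67.5% in NSC, so that its ESC libraries lay at the level of the NSC samples of the Nanog baits (57.3% to 59.0% on that measure).

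The differences were −6.62 percentage points for bait 1 (52.3% ± 1.80 against 58.9% ± 0.596, SD, n = 2 each, exact permutation p = 0.333), −6.25 for bait 2 (51.9% ± 0.783 in ESC, n = 3) and −9.39 for the CTCF bait (52.3% ± 0.696 in ESC, n = 2). Over the 3 baits the mean difference was −7.42 percentage points (52.2% against 59.6%, exact permutation p = 0.0139, adjusted p = 0.0231). This share is taken over long-range UMIs only, and against the deepest ESC samples alone the mean difference was −7.10 (exact permutation p = 0.0833, again the smallest possible). It was smaller without the 2 innermost windows on the higher side, at −3.13 percentage points (exact permutation p = 0.0139).

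Between 1 and 2 Mb on the higher side, NSC had 1.85 times the ESC density from bait 1 (3.40% and 6.29% per Mb), 2.14 times from bait 2 (2.62% and 5.596%) and 2.12 times from the CTCF bait (3.88% and 8.24%). Samples did not overlap. On the lower side at the same distance the ratios were 1.08, 0.884 and 1.13, and the samples overlapped at bait 1 and the CTCF bait. From bait 2 all 3 ESC libraries (4.61%, 3.81% and 3.90% per Mb) lay above the NSC library (3.63%) there. Between 2 and 5 Mb both sides were higher in NSC, by 1.23, 1.31 and 1.27 times on the lower side and by 1.42, 1.25 and 1.62 times on the higher side for bait 1, bait 2 and the CTCF bait, with no overlap. Between 5 and 10 Mb the ratios in the same order were 1.46, 1.55 and 1.03 on the lower side and 1.42, 1.16 and 1.23 on the higher side, and samples overlapped on the lower side of the CTCF bait and on the higher side of bait 2.

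Windows of 500 kb located these differences. The ranges hold 36 such windows among the 243 windows of chromosome 9 that were fitted with edgeR (quasi-likelihood test), scaled to the chromosome 9 UMIs outside 10 kb of the bait. Over the 3 baits, 7 of the 36 windows (19.4%) passed an adjusted p of 0.05 (Benjamini-Hochberg over the 243 windows), all higher in NSC. The count ranged from 2 to 9 when 1 sample was left out at a time, with 2 without either NSC sample of bait 1 or without CTCF bait ESC replicate 2, and 3 without bait 2 ESC replicate 3. Of all windows of the chromosome, 18.5% were called higher in NSC and 19.3% in either direction, so the share of calls was close to that of chromosome 9 as a whole. The median log2 ratio of ESC over NSC was −0.25 over the 36 windows and −0.36 over all windows. In 13 of the 36 windows (36.1%) every ESC sample lay below every NSC sample at each bait, against 31.3% of all windows, and in 0 windows was the order the opposite.

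The strongest difference was in the first window on the higher side, from 101640001 to 102140000. It holds the 3′ part of Ephb1, which encodes a receptor for ephrin-B ligands that guides axons, and 9630041A04Rik. From bait 1 this window received 1.68% and 1.07% of chromosome 9 UMIs in ESC and 2.89% and 3.11% in NSC. From bait 2 it received 1.36%, 0.722% and 0.736% in ESC and 2.75% in NSC, and from the CTCF bait 2.22% and 1.46% in ESC and 4.08% in NSC. No ESC sample reached the NSC level of its bait, and this was so for the deepest ESC samples too, which were the highest of each group.

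Over the 3 baits NSC exceeded ESC 2.34-fold in this window (log2 ratio of ESC over NSC −1.23 ± 0.17, SE, edgeR adjusted p = 1.08e-10). It was called from bait 1 (2.12-fold, log2 ratio −1.08 ± 0.27, adjusted p = 0.0124) and was the only window of the ranges called there, where 2.06% of all windows were called. It was also the only one called from bait 2 (2.79-fold, log2 ratio −1.48 ± 0.30, adjusted p = 0.000152, against 0.412% of all windows). That call was kept under 17 of 19 alternative settings and lost with DESeq2 and with each end counted once. Bait 2 and the CTCF bait have 1 NSC library each, whose spread edgeR took from the other groups (5 residual degrees of freedom), so this call has no replicate check in NSC. The median prior degrees of freedom were infinite, so window tests rested on a spread common to the windows, not on that of each window. From the CTCF bait the log2 ratio was −1.12 with an adjusted p of 0.0661, and 0 windows were called there in the ranges or, at 0%, among all windows (edgeR, with 3 windows of the ranges at an unadjusted p under 0.05, and 0 called by DESeq2). The call from bait 1 was lost without ESC replicates 2 and 3 (adjusted p = 0.412, edgeR), without NSC replicates 1 and 3 (0.138) and without NSC replicate 2 (0.521), each of which left 1 sample in a group.

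The next window, from 102140001 to 102640000, holds the start of Ephb1, Cep63, which encodes a centrosomal protein, and Anapc13, which encodes a subunit of the anaphase-promoting complex. From bait 1 it received 2.16% and 1.89% of chromosome 9 UMIs in ESC and 3.16% and 3.34% in NSC. From bait 2 it received 1.96%, 1.57% and 1.51% in ESC and 2.87% in NSC, and from the CTCF bait 2.15% and 1.93% in ESC and 4.24% in NSC. The groups did not overlap at any bait, and NSC exceeded ESC 1.77-fold over the 3 baits (log2 ratio −0.82 ± 0.16, edgeR adjusted p = 7.63e-05).

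The annotated body of Ephb1 (101922128 to 102354693, minus strand) spans both windows. From bait 1 it received 1.70% and 1.21% of chromosome 9 UMIs in ESC and 2.31% and 2.71% in NSC. From bait 2 the values were 1.52%, 1.25% and 1.17% in ESC and 2.29% in NSC, and from the CTCF bait 1.84% and 1.45% in ESC and 3.25% in NSC. The gene body itself was not tested. In windows of 250 kb the difference was present on both sides of the gene as well as within it. The stretch from 101640001 to 101890000, which overlaps 9630041A04Rik but not Ephb1, received 0.672% in ESC and 1.74% in NSC (log2 ratio −1.35, edgeR adjusted p = 1.95e-12). The stretch from 102390001 to 102640000, which holds Cep63, Anapc13 and Ky, had a log2 ratio of −0.98 (adjusted p = 6.6e-07). The stretches that overlap Ephb1, from 101890001 and from 102140001, had −1.05 (adjusted p = 3.46e-07) and −0.65 (adjusted p = 0.00647).

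The first window on the lower side, from 99100001 to 99600000, lies at about the same distance from the Nanog baits and did not differ in this way. It holds Armc8, which encodes a subunit of a ubiquitin ligase, Cep70 and Mras, which encodes a small GTPase. From bait 1 it received 3.10% and 2.04% in ESC and 2.76% and 2.57% in NSC. From bait 2 it received 3.08%, 2.82% and 2.96% in ESC and 2.31% in NSC, and from the CTCF bait 2.78% and 1.75% in ESC and 2.79% in NSC. The groups overlapped at bait 1, ESC was higher at bait 2, and the NSC library was close to the deeper ESC library at the CTCF bait. Over the 3 baits the log2 ratio was 0.02 ± 0.17 (edgeR adjusted p = 0.953).

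**Figure D3:**
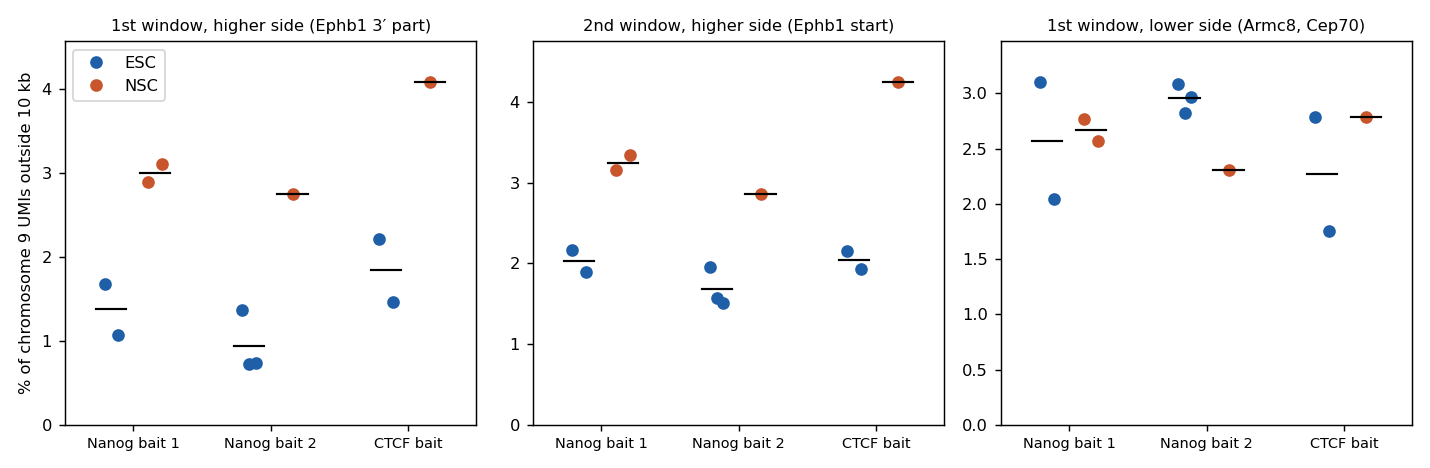
Share of chromosome 9 UMIs (%, outside 10 kb of the bait) in the 2 innermost windows on the higher side and the innermost window on the lower side, by bait, with 1 point for each sample (ESC blue, NSC orange) and black bars at means. ESC and NSC points are apart at every bait in the Ephb1 windows, whereas in the Armc8 and Cep70 window they overlap at bait 1 and ESC lies higher at bait 2.

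The window with the highest mean share was a different one in each cell type. In ESC it was the Armc8, Cep70 and Mras window from all 3 baits, at 2.57% ± 0.749 (SD, n = 2), 2.96% ± 0.129 (n = 3) and 2.27% ± 0.727 (n = 2), followed by the window of the Ephb1 start, at 2.02%, 1.68% and 2.04%. Only at bait 2 was the gap between these means wider than the SD of both, and in CTCF bait ESC replicate 2 the order was the opposite (1.75% and 1.93%). In NSC the window of the Ephb1 start came first, at 3.25% ± 0.129 (SD, n = 2) from bait 1, 2.87% from bait 2 and 4.24% from the CTCF bait. The window of the Ephb1 3′ part came next, at 2.996% ± 0.155, 2.75% and 4.08%. Those neighbours in order were close together.

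Beyond 2 Mb the highest shares lay on the same side. From bait 1 and the CTCF bait, in both cell types, the first window was that of Slco2a1, which encodes a prostaglandin transporter, with Ryk, which encodes a Wnt receptor, and Rab6b, from 102640001 to 103140000. It had 1.505% ± 0.0972 in ESC and 2.13% ± 0.114 in NSC from bait 1 (SD, n = 2 each), and 0.914% ± 0.344 in ESC (SD, n = 2) and 1.64% in NSC from the CTCF bait. The window of Tmem108, Topbp1 and Trf, from 103140001 to 103640000, came second there and first from bait 2, where it had 0.842% ± 0.272 in ESC (SD, n = 3) and 1.22% in NSC. For bait 2 the Slco2a1 window begins within 2 Mb of the bait. The second place from bait 2 went to the window of Tfdp2, Gk5 and Rasa2 in ESC (0.628% ± 0.121) and to that of Nmnat3, Copb2 and Rbp2 in NSC (0.941%), both on the lower side.

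The remaining 5 called windows continued outwards on the higher side or lay around Slc9a9 on the lower side, and their calls were less firm. The Slco2a1 window had a log2 ratio of −0.51 (edgeR adjusted p = 0.0261). The window of Tmem108, which encodes a neuronal membrane protein, Topbp1, which encodes a DNA replication and checkpoint protein, and Trf, which encodes transferrin, had −0.53 (adjusted p = 0.0355). The window of Tmem108, Acad11 and Ackr4, from 103640001 to 104140000, had −0.60 (adjusted p = 0.0269). Within the ranges, the 5 windows from 101640001 to 104140000 thus formed an unbroken run higher in NSC. The adjoining window from 101130001, outside the ranges, was also higher in NSC (edgeR adjusted p = 0.00970). On the higher side no window of the ranges beyond 104140000 passed the test.

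Slc9a9, which encodes a sodium and proton exchanger of endosomes, spans 2 windows on the lower side, about 5 to 6 Mb from the baits. The first, from 94600001 to 95100000, had 0.183% of chromosome 9 UMIs in ESC and 0.317% in NSC (log2 ratio −0.67, edgeR adjusted p = 0.0426). The second, from 95100001 to 95600000, which also holds U2surp and Paqr9, had 0.249% and 0.439% (log2 ratio −0.68, adjusted p = 0.0261). These rested on few molecules, with between 6 and 80 UMIs per sample in the first. The 5 windows outside Ephb1 were called under 8 to 10 of 19 or 20 alternative settings each, and their direction was kept under every one, whereas the Ephb1 3′ window was called under all 20 and the Ephb1 start window under 17 of 19.

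**Figure D4:**
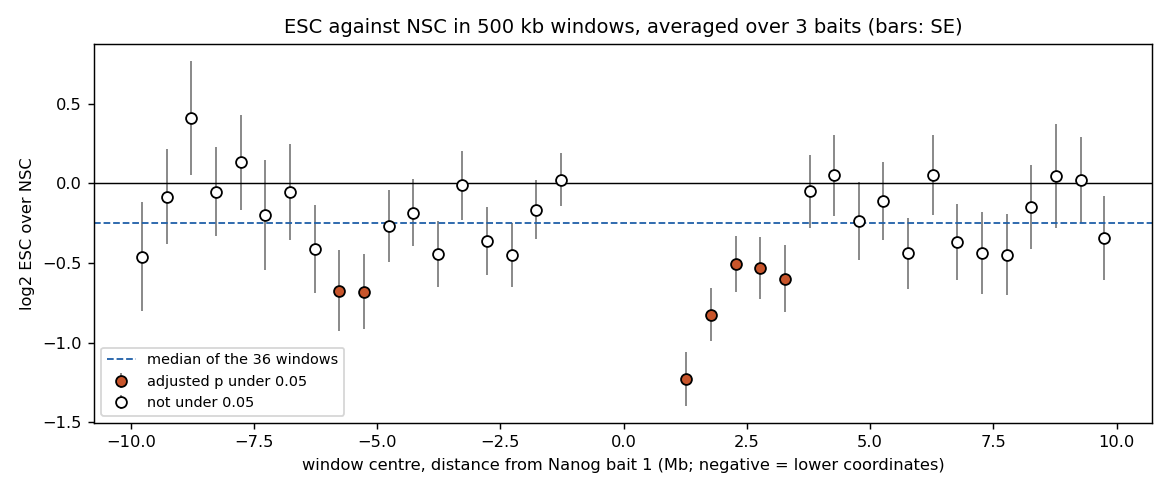
log2 ratio of ESC over NSC in the 36 windows of 500 kb, averaged over the 3 baits, against the distance of the window centre from Nanog bait 1 in Mb (negative at lower coordinates), with bars for the SE and filled points for edgeR adjusted p under 0.05. Filled points, all below 0, form a run of 5 from 1.27 to 3.27 Mb on the higher side, whose lowest is −1.23, and a pair near −0.67 on the lower side, and the dashed line marks the median of −0.25.

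The direction of weaker differences depended on scaling. Scaled to the UMIs of the 2 ranges themselves, which removes the difference in the long-range share, the median log2 ratio was 0.12, and 8 of the 36 windows were called. The 2 Ephb1 windows were still higher in NSC (log2 ratios −0.77 and −0.37, edgeR adjusted p = 2.54e-10 and 0.0352). The other 6 were higher in ESC, where 6.58% of all windows were called higher in ESC and 7.41% higher in NSC. They were a window with no protein-coding gene from 91600001 (0.80), the window of Clstn2, Trim42 and Slc25a36 from 97100001 (0.41), and the Armc8, Cep70 and Mras window (0.48). On the higher side they were the windows of Dnajc13 and Cpne4 (0.38), of Mrpl3 and Cpne4 (0.48) and of Dock3, Rad54l2 and Grm2 (0.42). With TMM factors 5 of the 36 were higher in ESC and the 2 Ephb1 windows higher in NSC (5.76% and 9.05% of all windows). With all UMIs outside 10 kb as library size only the 2 Ephb1 windows were called (1.65% of all windows higher in ESC and 11.9% in NSC), and with DESeq2, or each end counted once, only the Ephb1 3′ window.

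Windows just inside and just outside the edges of the ranges are given for comparison, without a test between them. The window from 101130001, closer to the bait than the ranges, had 4.69% of chromosome 9 UMIs in ESC and 6.55% in NSC. Its log2 ratio was −0.55 (edgeR adjusted p = 0.00970), against −1.23 in the first window inside. On the lower side the window from 99600001 had 4.49% and 6.04% (log2 ratio −0.45, edgeR adjusted p = 0.0261), against 0.02 in the first window inside. The windows between these, around the baits, went the other way, with 26.995% of chromosome 9 UMIs in ESC and 19.6% in NSC from 100110001 (log2 ratio 0.46, edgeR adjusted p = 0.0200) and 29.0% and 18.7% from 100620001 (0.63, adjusted p = 0.00202). All shares are of the same chromosome 9 total, so a lower share close to the bait goes with a higher one elsewhere. At the outer edges the log2 ratios were −0.14 from 90100001 and −0.19 from 110600001, against −0.46 and −0.34 in the outermost windows inside. The ratio of ESC over NSC was called different between baits in 0 of the 36 windows for each pair of baits (edgeR interaction, 0 at an unadjusted p under 0.05, lowest adjusted p 0.978). This says little about likeness of the baits, since the power of that test was not measured. In simulated data the ESC against NSC comparison at single baits called 4.33% to 16% of windows changed 2-fold.

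Genes of 4 lists were described by the windows that hold them, each beside the medians of −0.25 over the 36 windows and −0.36 over all windows, and beside the 7 of 36 windows (19.4%) and 18.5% of all windows called higher in NSC. For neural development and synapse, 15 genes lay in 13 windows, of which 4 were higher in NSC and 0 in ESC, with a median log2 ratio of −0.37, close to that of all windows. The 4 were the windows of Ephb1 and of Tmem108. Clstn2, which encodes a postsynaptic calsyntenin, was in a window with −0.36 at its start (edgeR adjusted p = 0.268). Zic1 and Zic4, zinc finger factors of the developing nervous system, lay in a window with −0.08 (adjusted p = 0.923), and Bsn, which encodes a scaffold of the presynaptic active zone, in one with −0.45 at its start (adjusted p = 0.241).

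For genome maintenance, chromatin and cell cycle, 11 genes lay in 9 windows, of which 2 were higher in NSC, those of Cep63 with Anapc13 and of Topbp1, and the median was −0.34, so that both its count and its median were close to those of all windows. Atr, which encodes the kinase that responds to stalled replication, was in a window with −0.27 (edgeR adjusted p = 0.486), and Smarcc1, which encodes a subunit of the BAF chromatin remodeler, in one with 0.02 at its start (adjusted p = 0.975). For extracellular matrix, secreted and membrane proteins, 11 genes lay in 8 windows, of which 3 were higher in NSC, those of Slc9a9 and of Trf, and the median was −0.45. For translation and metabolism, 10 genes lay in 6 windows, of which 0 passed the test, with a median of −0.30. Copb2, which encodes a coat protein of Golgi vesicles, was in a window with −0.45 (adjusted p = 0.111), and Rpl29, a ribosomal protein gene, in one with −0.44 (adjusted p = 0.178). Several windows hold genes of more than 1 list, so the lists are not independent of each other.

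Gene content differed strongly between the sides. The lower range holds the starts of 50 protein-coding genes and the higher range 171, and 34.5% and 66.5% of the possible ends lie in the bodies of such genes. GC content was 41.3% and 45.2%. Relative to a line fitted to log share against log distance, windows with more gene starts received more contacts in all 6 groups of bait and cell type. Over the 36 windows, the correlation of the deviation with the number of protein-coding starts had r between 0.23 and 0.66 (rho 0.39 to 0.79), and with GC content r between 0.35 and 0.69. These are descriptions across windows, which share libraries and lie next to each other, and gene density, GC content and side cannot be told apart here.

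The windows highest above the line on average were that of Smarcc1, Setd2, which encodes a histone H3 methyltransferase, and Cspg5 from 110140001 (1.92-fold), that of the Ephb1 start (1.81-fold) and that of Slco2a1, Ryk and Rab6b (1.59-fold). All 3 lay above it in all 6 groups. The lowest were 2 stretches with no protein-coding gene, from 93100001 (0.497-fold) and from 91600001 (0.593-fold), below the line in all 6 groups. The window of the Ephb1 3′ part was below the line on average in ESC (log2 deviation −0.46) and above it in NSC (0.25). Profiles of deviation correlated between groups with r from 0.73 to 0.83 for the same bait in both cell types, from 0.58 to 0.88 for the same cell type from other baits, and from 0.50 to 0.80 for the rest (36 windows each).

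**Figure D5:**
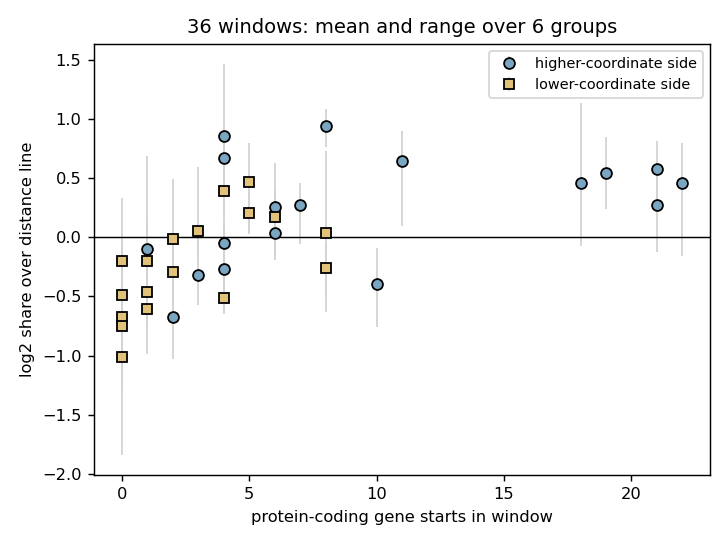
Deviation of the share of each of the 36 windows from a line of log share on log distance (log2) against the number of protein-coding gene starts in the window, with points for the mean and grey bars for the range over the 6 groups of bait and cell type, circles for the higher side and squares for the lower side. Windows without gene starts lie below 0, down to −1.01, and the windows with 11 or more starts lie above 0.

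The gene-rich share, the percentage of long-range UMIs in the 12 windows with the most protein-coding starts, was higher in ESC. These windows hold 34.3% of the possible ends and between 6 and 22 starts each. With 3 windows tied at 6 starts, the one at the lowest coordinate was taken and the other 2 were classed as intermediate. From bait 1 the share was 38.4% and 33.5% in ESC and 32.7% and 33.3% in NSC, from bait 2 it was 39.0%, 43.1% and 41.7% in ESC and 32.3% in NSC, and from the CTCF bait 35.4% and 32.3% in ESC and 28.6% in NSC. The ESC samples lay above the NSC samples of each bait, narrowly at bait 1. The mean difference over the baits was 5.70 percentage points (37.0% against 31.3%, exact permutation p = 0.0139, adjusted p = 0.0231), and by bait it was 2.89 (exact permutation p = 0.333), 8.999 and 5.19. The difference at bait 1 rested on 1 ESC sample, since it was 0.441 without ESC replicates 1 and 4 and 5.35 without ESC replicates 2 and 3.

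This direction turned with the definition of the class. With the 12 windows of highest GC content, 8 of which are also gene-rich, the mean difference was −2.26 percentage points (exact permutation p = 0.0139). Without the 2 innermost windows on the higher side, which hold 1 and 4 protein-coding starts and are not gene-rich, it was 2.26 (exact permutation p = 0.194). On the higher side alone it was 3.22 (exact permutation p = 0.111), and on the lower side alone 5.30 (exact permutation p = 0.0139). With the tied windows included, which makes 14, it was 5.84 (exact permutation p = 0.0278), and by bait 2.498 (p = 0.667, with overlap between the groups), 8.86 and 6.17. Of the called windows, 1 of the 12 gene-rich windows, 4 of the 12 with an intermediate number of starts and 2 of the 12 with the fewest were higher in NSC, and 2 of the 14 windows with 6 starts or more.

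The gene body share, the percentage of long-range UMIs whose end lay within a protein-coding gene, was close to equal in both cell types. From bait 1 it was 57.0% and 56.1% in ESC and 57.5% and 54.9% in NSC. From bait 2 it was 57.9%, 58.0% and 60.02% in ESC and 56.2% in NSC, and from the CTCF bait 56.1% and 55.4% in ESC and 56.3% in NSC. In the fixed ranges all samples lay above the 50.7% of possible ends in such genes, a baseline that takes no account of distance. With 1 to 10 Mb taken from its own position, the CTCF bait had 49.5% and 50.46% in ESC and 50.51% in NSC. Samples of the Nanog baits had 54.5% to 59.9% on that measure. The mean difference over the baits was 0.727 percentage points (exact permutation p = 0.375, adjusted p = 0.389).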

How the data were processed

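The authors deposited 1 file per library with the count of UMIs, not normalised, for each pair of fragment ends. The submitters' processing notes name Bowtie2 and mm10 (GRCm38), and versions, the rule for collapsing UMIs and filters are not given in the sources used here. The bait was the most frequent end. Listed ends lay at GATC sites of GRCm38 in 100% of cases, against 0.321% to 0.574% when positions were shifted by 100 bp. Genes came from the annotation supplied with that build.

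Contacts closer than 10 kb were set aside. Libraries that had at least 50% of ends on other chromosomes in common were averaged, and those with at least 1% were called linked. Shares of UMIs were compared by two-sided exact permutation tests, for all baits with cell types permuted within each bait. Chromosome 9 was tiled in 500 kb windows, and those whose samples summed to 10 UMIs or more entered the quasi-likelihood test, in R 4.3.3 with edgeR 4.0.16 and limma 3.58.1, averaged counts being rounded. All 6 groups shared 1 estimate of the spread (5 residual degrees of freedom), so a lone NSC library was assumed to vary like the other groups. Prior degrees of freedom were infinite (median), so the p-values of windows take no account of a spread particular to 1 window. DESeq2 1.42.0 was an alternative. On simulated data of the 243 windows (20 simulations), the fit over all baits called 56% of windows changed 2-fold, 17.3% of those changed 1.5-fold and 0.410% of unchanged ones. For bait 1 alone it called 16% of the windows changed 2-fold, for bait 2 4.33% and for the CTCF bait 6.5%.

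Samples were grouped by the bait and cell type in their titles. Deviations of same-numbered ESC and NSC libraries of bait 1 did not go together across windows (r = 0.04, −0.02 and −0.13 for 3 pairs), so the numbers were not taken as pairs. The regions, lists, measures and tests were chosen with earlier results of these data known. Named windows were up to 3 per direction and comparison with the largest change past the threshold, the 2 with the highest share per bait and cell type (overall and beyond 2 Mb) and those holding listed genes, with up to 3 protein-coding genes named in each. Comparisons with the deepest ESC samples alone, without the 2 innermost windows, on the lower side alone and with tied gene-rich windows were added after seeing the data.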

Additional observations from a re-analysis of the deposited data

Results flagged for a closer look

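The gene body share moved in opposite directions at 2 baits. From bait 2 all ESC libraries lay above the NSC library, by 2.40 percentage points on average, and from the CTCF bait both ESC libraries lay below it, by −0.607. This difference between baits was not tested, and with all annotated genes in place of protein-coding genes the CTCF bait difference was 0.759.

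Some deposited pairs did not include the bait end, and these were not used. In the library with most of them, 115 UMIs joined other ends to an end 1 to 10 Mb from the bait, which was 3.23% of the UMIs analysed there. The lowest library had 0, and 9 of the 14 libraries had more than 3. Bait 1 libraries had at least 8, and libraries of the other baits at most 10. No control sample exists for these pairs, and their source was not tested.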

How the results depend on the processing

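Values are ESC minus NSC in percentage points, or numbers of called windows of the 36. The long-range share over all baits was −4.13 with each end counted once and −3.79 against the deepest ESC samples. Of chromosome 9 UMIs in or beyond the ranges it was 3.20 (bait 1), 1.73 (bait 2), −3.65 (CTCF bait) and 0.425 (all baits). Of all UMIs outside 10 kb it was −1.47, −1.66, −4.37 and −2.50, and without the distant ends that linked libraries had in common −6.94, −3.52, −4.15 and −4.87 in the same order. For bait 2 it was −2.50 of chromosome 9 UMIs outside 100 kb and −1.95 against the linked ESC library, and for bait 1 −3.91 between ESC 1 and 4 and NSC 1 and 3, −10.8 between the other linked libraries and −4.37 without ESC replicates 2 and 3. With every library as a replicate, bait 1 gave −7.22 for the long-range and −6.48 for the high-side share (exact permutation p = 0.0286 each) and −0.0530 for the gene body share. Those p-values count repeat libraries as separate samples, so they cannot be taken at face value. The high-side share was −7.10 over all baits against the deepest ESC samples and −8.63 for the CTCF bait with 1 to 10 Mb taken from its own position. Without the distant ends that linked libraries had in common, it was −7.27 (bait 2) and −10.9 (CTCF bait), and the far share −0.358 and 2.38. The far share was 0.404 between ESC 1 and 4 and the NSC 1 and 3 libraries of bait 1 that are linked to them and 1.69 for bait 2 against the linked ESC library. The gene-rich share was −1.36, −1.82, −3.61 and −2.26 (baits in the same order, then all) with GC-rich windows, 5.74 (bait 2) and 3.22 (all) on the higher side alone, 2.26 without the 2 innermost windows, 6.28 against the deepest ESC samples and 6.76 for bait 2 against the linked ESC library. The gene body share with all annotated genes was 0.907 (bait 2) and 0.759 (CTCF bait), and −0.433 between the same linked libraries of bait 1. The causes were not tested.

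Called windows, 1, 1, 0 and 7 for bait 1, bait 2, the CTCF bait and all baits, became 2 for bait 1 with long-range library size, with TMM, without linked ends or with bait 1 samples alone, 8 with every library as a replicate, and 0 with DESeq2 or ends counted once. The last 2 gave 0 for bait 2 and 1 for all baits. The CTCF bait had 1 with 1 Mb windows or TMM and 2 with all UMIs as library size or every library as a replicate. All baits had 3 with 1 Mb windows, where 18 windows cover the ranges, and 2 with all UMIs as library size. Leaving out 1 sample at a time gave 0 to 1, 1 to 2, 0 to 1 and 2 to 9 windows, far shares of −3.42 to 1.24 (bait 1) and −0.299 to 0.989 (bait 2), and gene body shares of −0.925 to 1.69 (bait 1). The long-range, high-side and gene-rich shares over all baits kept their direction there, with exact permutation p from 0.0185 to 0.0370.

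A replicate block was fitted to 3 pairs of bait 1 libraries, which hold repeats. There the long-range share was −8.20 (exact permutation p = 0.25), the gene body share −0.367, and 12 windows were called. The other shares kept their direction.

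Depth limited single windows, since those beyond 5 Mb rested on as little as 1 UMI in a sample.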
